A study of Mus musculus with 18 samples.

Results

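Distal colon of Il10 knockout mice (Il10KO) was compared between week 12 and week 10 of life, to see which of the RNA changes of week 10 had receded and which were still present 2 weeks later. The 6 libraries were chosen by their labels: 3 Il10KO mice sampled at week 12 and 3 at week 10, of 18 libraries in the series. All mice were BALB/c, each was sampled at a single age, and the Il10KO mice of week 6 (3 libraries) are given beside them as the youngest knockout age. The study's wild-type mice were sampled at week 6 alone, so that effects of colitis and of growth between weeks 6 and 12 cannot be told apart. The Il10KO groups share the same genotype, and no treatment is given in the labels. The material was a short piece of the whole distal colon wall from which polyadenylated RNA was sequenced, so that each value is a mixture of epithelium, immune cells, muscle and stroma. In such samples fewer cells of a type and less RNA per cell cannot be told apart.

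IL-10 is an anti-inflammatory cytokine that acts on macrophages and other cells through the transcription factor STAT3. Without it, the response to gut bacteria escapes control, and colitis driven by Th1 and Th17 cells develops without any further trigger. In such colitis, interferon-gamma from T cells induces guanylate-binding proteins and antigen-presentation genes, while IL-1, TNF and the IL-22 and IL-6 families act on epithelium and stroma to raise neutrophil chemokines, antimicrobial proteins and surface fucosylation. Inflamed mucosa is also poor in oxygen, which stabilises HIF-1 and favours glycolysis, and secretory work loads the endoplasmic reticulum.

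Total estimated counts ran from 29747473 to 32844928 in the week 10 libraries and from 27048118 to 35497101 in those of week 12. RNA integrity numbers (RIN) were 8.5, 8.7 and 9 at week 10 and 8.9, 8.6 and 8.8 at week 12. The mice of week 10 came from cages B, C and F and those of week 12 from cages A, B and E. Cage B alone held both ages, with 1 mouse of each, which is too few for a value within the cage. Week 10 replicate 1 stood apart: S100a8 and S100a9, the subunits of the neutrophil protein calprotectin, took 0.422% of its counts, against 0.0167% and 0.002% in replicates 2 and 3 and 0.00336%, 0.00185% and 0.000778% at week 12. Its summed CPM over 13 smooth muscle genes was 1573, against 6001 and 6629 in the other week 10 libraries and 3937 to 7349 at week 12. Pairs of week 10 libraries correlated across genes at a Pearson's r of 0.919 to 0.962 and pairs of week 12 libraries at 0.974 to 0.981, where genes do not count as replicates. The targeted gene gave 0 estimated counts in all 15 Il10KO libraries, and 1, 0 and 3 in the wild type. The colon markers Vil1, Krt20, Muc2, Slc26a3, Cdx2, Hoxb13 and Hoxd13 were all measured above 10 CPM in each of the 6 libraries.

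The lipocalin values in the labels, a marker of gut inflammation, did not separate the groups. The labels do not say in which material they were measured, so that their relation to RNA of the colon wall is not known. They were 554.27103, 339.50897 and 363.72087 ng/g in the week 10 mice and 2574.23055, 444.24416 and 1766.79478 ng/g at week 12. Week 12 replicate 2 lay among the week 10 values, and the other two week 12 mice lay above all of them. The difference of the means was 1176 ng/g (two-sided exact permutation test, p = 0.2, where 3 against 3 cannot go below 0.1). The transcript of Lcn2, which encodes lipocalin 2, was lower in every week 12 library without passing the test, at 113, 55.2 and 30.9 CPM at week 10 and 7.96, 3.64 and 5.73 CPM at week 12 (log2 fold change -3.52 ± 0.98, adjusted p = 0.116). CPM are counts scaled to the TMM-adjusted library size, and each log2 fold change is given ± its standard error from 1 model of all 18 libraries.

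Single genes of several pathways were lower at week 12 than at week 10, among them the glycolytic genes Pfkfb3 and Hk2, the fucosyltransferase gene Fut2, the TNF receptor genes Tnfrsf1a and Tnfrsf1b and the chaperone gene Hspa5. The cytochrome P450 genes Cyp2c69 and Cyp2c68 and the endothelin genes Edn1 and Edn2 were higher. Most members of the gene lists described below did not pass the test. Of 16300 genes tested, 39 fell (0.239%) and 34 rose (0.209%), together 0.448%, at an adjusted p under 0.05. Falls ran from -0.87 to -3.66 with a median of -1.50, rises from 0.93 to 5.24 with a median of 1.65, while the median over all genes was -0.0057. For each of the 73 genes, every week 12 library lay on 1 side of every week 10 library. That was also so of 12% of all genes in the downward and 11.7% in the upward direction, most of which did not pass the test. The model shares its spread with the 3 heterogeneous week 14 libraries; without them the counts were 639 lower and 457 higher, with all 73 genes among them, and with library size in place of TMM they were 14 lower and 6 higher. Leaving out week 10 replicate 2 gave 39 lower and 31 higher, 46 of them among the 73. The other single libraries moved the counts further down: 22 lower and 8 higher without week 10 replicate 1, with 19 of the 39 falls and 6 of the 34 rises called again, 4 lower and 5 higher without week 12 replicate 1, and none without week 10 replicate 3, week 12 replicate 2 or week 12 replicate 3, with 2172, 1569 and 1949 genes at an unadjusted p under 0.05. With cage as a factor no gene passed either, and 1194 had an unadjusted p under 0.05.

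**Figure D1:**
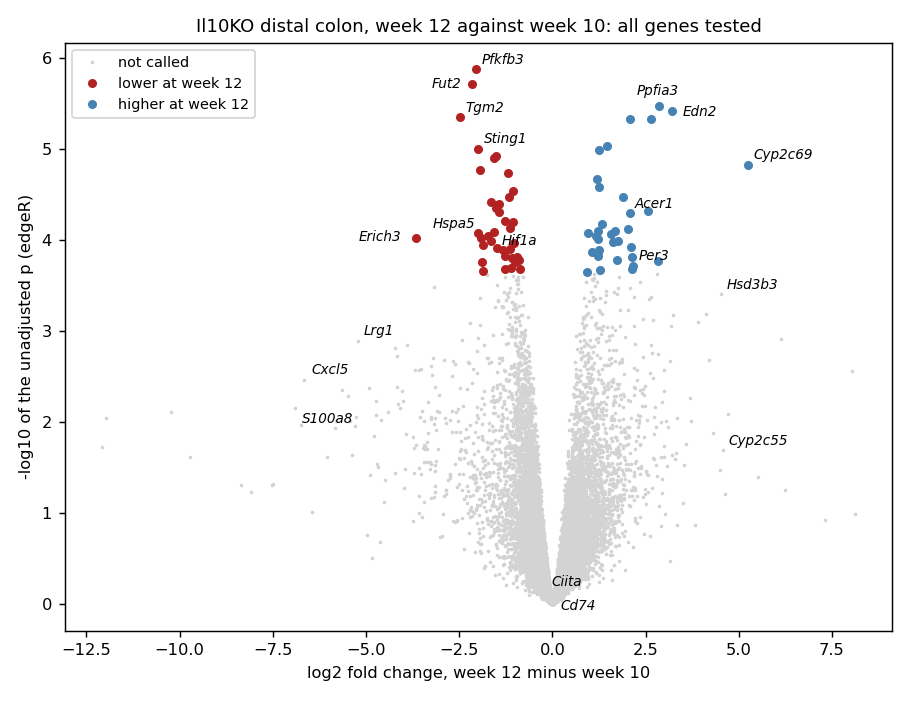
Log2 fold change of each of the 16300 tested genes between week 12 and week 10 (x axis, negative values are lower at week 12) against the -log10 of its unadjusted edgeR p (y axis). Red points are the 39 genes that fell, blue points the 34 that rose and grey points the genes not called; neutrophil genes such as S100a8 and Cxcl5 lie far to the left without passing.

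The other two comparisons used here are week 10 against week 6, with 2372 genes higher (14.6%) and 1545 lower (9.48%), and week 12 against week 6, with 221 higher (1.36%) and 80 lower (0.491%), or 24% and 1.85% of all genes in either direction. Week 12 against week 6 rested on each of its libraries: 13, 9 and 52 genes were called without week 12 replicates 1, 2 and 3, and 1, 0 and 0 without week 6 replicates 1, 2 and 3 (3457, 3418 and 3573 at an unadjusted p under 0.05), while 6686 were called without the week 14 libraries. With cage as a factor it gave no call, with 1762 genes at an unadjusted p under 0.05. The 3 comparisons share libraries with each other, so that a high week 10 value enters 2 of the 3 comparisons, and their values are set side by side only to show where each gene stood. Gene lists are described by counts and medians, without a test of the list. Beside the list counts stand those of all genes. Of these, 12% were lower and 11.7% higher in every week 12 library. Without the week 14 libraries 639 of 16176 genes fell between weeks 10 and 12 and 457 rose.

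Of the hypoxia and glycolysis list 3 genes fell: Pfkfb3, Hk2 and Hif1a. Pfkfb3 (chromosome 2, 11471433 to 11554077, minus strand, GRCm38), whose enzyme makes the sugar bisphosphate that switches glycolysis on, measured 112, 73.9 and 84.3 CPM at week 10 and 23.5, 18.9 and 22.9 CPM at week 12. The groups were far apart, and Pfkfb3 fell by 2.05 ± 0.27 on the log2 scale (adjusted p = 0.0110). Its week 6 values were 10.2, 8.72 and 10.2 CPM, so that week 12 was still above week 6 by 1.17 ± 0.26 (adjusted p = 0.0421). Hk2 (chromosome 6, 82725025 to 82774454), the hexokinase that traps glucose in growing and inflamed cells, measured 323, 472 and 722 CPM at week 10 and 135, 125 and 136 CPM at week 12. It fell by 1.94 ± 0.32 (adjusted p = 0.0198), and its difference of 1.00 ± 0.31 from week 6 did not pass (adjusted p = 0.0874). Hif1a, the oxygen-regulated transcription factor itself, measured 823, 477 and 539 CPM at week 10 and 153, 160 and 274 CPM at week 12. It fell by 1.65 ± 0.32 (adjusted p = 0.0377), with 2 of the week 12 values just below the week 6 range of 177 to 310 CPM and the other within it. These 3 were the only calls among the 19 measured hypoxia and glycolysis genes, of which 11 were lower in every week 12 library; the list's median was -0.82. Without the week 14 libraries 7 of the 19 fell, and without week 10 replicate 1 it was 2, Hif1a no longer passing (adjusted p = 0.102).

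Of the genes induced through STAT3, 3 list members and Sbno2 fell. Fut2, the fucosyltransferase that decorates the epithelial surface with fucose under IL-22, measured 661, 504 and 759 CPM at week 10 and 163, 128 and 137 CPM at week 12. Every week 12 value was far under the lowest week 10 value, and Fut2 fell by 2.17 ± 0.29 (adjusted p = 0.0110). Osmr, the receptor chain for oncostatin M that marks inflamed gut stroma, was 37.3, 28.3 and 36.9 CPM at week 10 and 11, 14.1 and 11.2 CPM at week 12 (log2 fold change -1.50 ± 0.27, adjusted p = 0.0306). At week 6 it was 10.3, 11.9 and 9.59 CPM, which left a difference of 0.19 ± 0.26 between weeks 12 and 6. Bcl3, a nuclear partner of NF-kB that STAT3 also induces, was 129, 181 and 189 CPM at week 10 and 57.6, 53.7 and 72.9 CPM at week 12 (-1.44 ± 0.25, adjusted p = 0.0298). Fut2, Osmr and Bcl3 were 3 of 13 measured genes on the list of IL-10 and IL-22 receptors and STAT3 targets, whose median was -0.56. Of the 13, 6 fell without the week 14 libraries and 2 without week 10 replicate 1, Osmr no longer passing (adjusted p = 0.0758). Socs3, the feedback inhibitor of STAT3, was 197, 146 and 162 CPM at week 10 and 47.1, 21 and 22.1 CPM at week 12. Those groups did not overlap, but the difference of -2.49 ± 0.74 did not pass (adjusted p = 0.137). Sbno2, a co-regulator that STAT3 induces in macrophages, fell from 139, 176 and 213 CPM to 87.9, 88.2 and 75.1 CPM (-1.07 ± 0.22, adjusted p = 0.0431).

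Both TNF receptors fell, while the ligand did not pass. Tnfrsf1b, the receptor found mainly on leukocytes, measured 259, 166 and 206 CPM at week 10 and 59.4, 55 and 60.1 CPM at week 12 (-1.85 ± 0.36, adjusted p = 0.0391). The broadly expressed Tnfrsf1a measured 176, 262 and 269 CPM and then 124, 105 and 96.2 CPM (-1.12 ± 0.22, adjusted p = 0.0401), against 105, 118 and 106 CPM at week 6. Tnf was 28.9, 31.7 and 18.6 CPM at week 10 and 14.3, 12.4 and 5.67 CPM at week 12, a difference of -1.29 ± 0.78 (adjusted p = 0.490). Its week 6 values were 0.398, 0.411 and 0.282 CPM, and week 12 remained higher by 4.88 ± 0.95 (adjusted p = 0.0313). Tnfaip2, a TNF-induced gene, fell by 1.66 ± 0.29 (adjusted p = 0.0295). Card14, a scaffold that links epithelial receptors to NF-kB, fell by 1.20 ± 0.20 (adjusted p = 0.0203). Without week 10 replicate 1 Tnfrsf1b (adjusted p = 0.0997) and Tnfaip2 (adjusted p = 0.0672) did not pass, while Tnfrsf1a and Card14 did. On the list of NF-kB regulators and feedback inhibitors 1 of 16 measured genes, Bcl3, fell, and 4 did without the week 14 libraries.

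Sting1, the adaptor of cytosolic DNA sensing, was even within each age, with 116, 90.5 and 102 CPM at week 10 and 26.2, 25 and 26.7 CPM at week 12. It fell by 1.99 ± 0.31 (adjusted p = 0.0170) to about its week 6 level of 22.1, 20.6 and 25.6 CPM. Tgm2, a transglutaminase that cross-links proteins of the matrix and is induced in inflamed tissue, measured 634, 207 and 448 CPM and then 94.1, 71.3 and 65.4 CPM. It fell by 2.48 ± 0.36 from week 10 (adjusted p = 0.0110). Its week 12 values lay below those of week 6, at 124, 96.5 and 108 CPM, but that difference did not pass (adjusted p = 0.282).

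The unfolded protein response list held 2 of the falls, Hspa5 and Asns. Hspa5, the chaperone BiP that senses unfolded protein in the endoplasmic reticulum, measured 1263, 1140 and 1319 CPM at week 10 and 352, 392 and 508 CPM at week 12. It fell by 1.57 ± 0.30 (adjusted p = 0.0371) to the level of week 6, at 349, 398 and 438 CPM. Asns, asparagine synthetase, a target of the ATF4 arm of that response, was 95.3, 52.5 and 79.1 CPM and then 22.5, 20.1 and 25.8 CPM (-1.73 ± 0.33, adjusted p = 0.0371). Hspa5 and Asns were 2 of 18 measured genes of the unfolded protein response list, whose median was -1.0; 11 of the 18 were lower in every week 12 library, 12 fell without the week 14 libraries and none without week 10 replicate 1. Xbp1, the spliced transcription factor of the response and also a plasma cell gene, was 682, 550 and 467 CPM and then 281, 272 and 289 CPM, which did not pass (-1.01 ± 0.33, adjusted p = 0.167). Dpagt1, the enzyme of the first step of N-glycosylation, fell by 1.13 ± 0.21 (adjusted p = 0.0371). Without week 10 replicate 1 Dpagt1 did not pass (adjusted p = 0.097). Some called genes of growth were on no list and were named after their values were seen. They include the ribosome assembly factors Nop58 (-1.06 ± 0.18), Noc4l (-1.27 ± 0.26) and Grwd1 (-1.27 ± 0.26), spermidine synthase Srm (-1.50 ± 0.27), CTP synthase Ctps (-1.18 ± 0.20) and the tyrosyl-tRNA synthetase Yars (-1.28 ± 0.24), with adjusted p from 0.0265 to 0.0489. Srm ran from 63.7 to 89.2 CPM at week 10 and from 25.7 to 28.7 CPM at week 12, against 21.8 to 22.2 CPM at week 6. None of the 24 cell cycle and mitosis genes passed, although all 24 estimates were negative, 15 were lower in every week 12 library and the median was -0.87. Cdc6, a loader of the replicative helicase, was 10.3, 10.7 and 13.4 CPM and then 4.47, 5.71 and 7.04 CPM (-1.0 ± 0.28, adjusted p = 0.120).

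The largest fall was in Erich3, a gene known from cilia, which measured 14.2, 4.27 and 4.31 CPM at week 10 and 0.544, 0.582 and 0.669 CPM at week 12 (-3.66 ± 0.70, adjusted p = 0.0371). It was under 1 CPM in every week 6 library. Without week 10 replicate 1 the Erich3 difference was -2.83 ± 0.65 and did not pass (adjusted p = 0.0997). Hgf, the growth factor for epithelium made by stroma and neutrophils, went from 27.1, 9.76 and 14.8 CPM to 4.33, 4.73 and 5.07 CPM (-1.87 ± 0.39, adjusted p = 0.0494). Clca3b, a member of the chloride channel regulator family, measured 1714, 654 and 1436 CPM and then 286, 292 and 444 CPM (-1.90 ± 0.39, adjusted p = 0.0444). The semaphorin Sema6b (-1.98 ± 0.38), the extracellular sulfatase Sulf2 (-1.92 ± 0.37) and Eps8, which caps actin in microvilli (-1.42 ± 0.26), also fell, with adjusted p from 0.0307 to 0.0371. For Tgm2, Hif1a, Erich3, Hgf and Pfkfb3, among others, week 10 replicate 1, the library with the most S100a8 and S100a9, had the highest week 10 value; in Hk2, Fut2, Bcl3, Noc4l, Srm and Sulf2 it did not. Without that library Hgf, Clca3b, Sema6b and Eps8 did not pass either, with adjusted p from 0.0758 to 0.131. The part of neutrophil content in these falls was not tested.

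**Figure D2:**
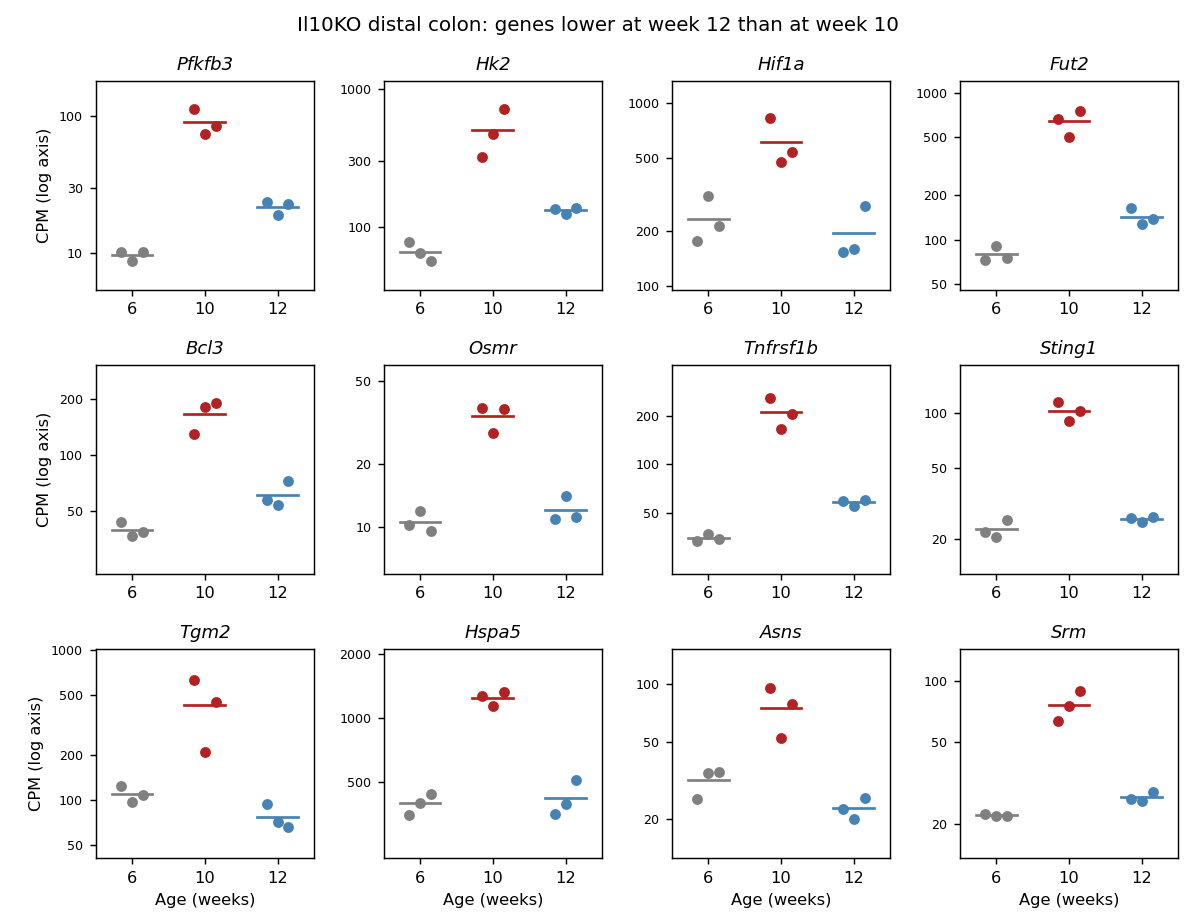
CPM on a log axis (y) of 12 genes that fell between week 10 and week 12, by age in weeks (x), with 1 point per library and a bar at the mean of the 3 libraries of a group. Each week 12 point lies below every week 10 point, and for Sting1, Osmr and Hspa5 the week 12 points lie at about the level of week 6.

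Promoters of 4 of the genes that fell are shown for the motifs of the pathways named above, from RefSeq on GRCm38.p6, each from 250 bases before to 50 bases after the annotated start, on the strand of the gene. Capitals mark the match. In Pfkfb3 and Hk2 the motif is the core of the hypoxia response element, ACGTG, in either direction; in Sbno2 it is the STAT site TTCNNNGAA, and in Hspa5 the endoplasmic reticulum stress response element, which is CCAAT, any 9 bases and CCACG. The windows are chr2:11553880-11554179 (minus strand) for Pfkfb3, chr6:82774405-82774704 (minus) for Hk2, chr10:80102653-80102952 (minus) for Sbno2 and chr2:34771840-34772139 (plus) for Hspa5. In the annotation used for the gene positions above, Sbno2 spans 80056992 to 80105571, so that its window lies inside the gene. Other starts of a gene were not searched.
Pfkfb3: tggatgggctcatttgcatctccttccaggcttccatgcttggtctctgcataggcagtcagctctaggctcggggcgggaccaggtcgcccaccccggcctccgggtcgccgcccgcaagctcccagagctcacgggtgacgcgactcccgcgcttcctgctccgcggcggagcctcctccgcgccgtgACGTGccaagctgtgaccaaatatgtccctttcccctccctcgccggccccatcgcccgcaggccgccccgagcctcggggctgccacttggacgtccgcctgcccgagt
Hk2: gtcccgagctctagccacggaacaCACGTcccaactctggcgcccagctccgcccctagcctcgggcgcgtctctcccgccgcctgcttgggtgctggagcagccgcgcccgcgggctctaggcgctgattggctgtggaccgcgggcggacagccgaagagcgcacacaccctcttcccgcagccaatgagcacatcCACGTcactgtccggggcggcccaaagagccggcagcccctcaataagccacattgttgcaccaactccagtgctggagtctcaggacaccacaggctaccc
Sbno2: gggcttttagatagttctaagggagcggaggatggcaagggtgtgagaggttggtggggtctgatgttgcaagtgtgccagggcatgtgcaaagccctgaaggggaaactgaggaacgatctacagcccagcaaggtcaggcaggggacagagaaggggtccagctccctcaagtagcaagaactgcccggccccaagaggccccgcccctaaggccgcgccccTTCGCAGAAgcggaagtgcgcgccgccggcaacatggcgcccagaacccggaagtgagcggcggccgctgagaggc
Hspa5: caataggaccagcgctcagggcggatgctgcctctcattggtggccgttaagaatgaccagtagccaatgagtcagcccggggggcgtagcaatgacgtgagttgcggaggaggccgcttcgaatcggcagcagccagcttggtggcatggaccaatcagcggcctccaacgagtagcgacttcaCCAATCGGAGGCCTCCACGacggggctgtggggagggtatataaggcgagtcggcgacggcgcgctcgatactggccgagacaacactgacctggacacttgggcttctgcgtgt

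Of the 39 genes that fell 30 had a promoter in the RefSeq table, and of the 34 that rose 27. The hypoxia core ACGTG lay in 33.3% of the promoters of genes that fell, 18.5% of those that rose and 24.2% of the 12302 promoters of tested genes. The STAT site TTCNNNGAA lay in 20.0%, 7.41% and 7.09%. The falls with this site were Noc4l, Nop58, Sbno2, Tnfrsf1a, Tnfrsf1b and Wdr77. Fut2, Osmr and Bcl3 were not among them, for lack of either the site or a promoter in the RefSeq table. The interferon-stimulated element (GAAA, any 2 bases, GAAA) lay in 6.67%, 3.70% and 3.27%, and the stress element in 3.33%, 0% and 0.13%, the single match among the falls being Hspa5. Both strands were searched, the hypoxia core can overlap the end of other motifs, and these shares describe letters in a window, with no test and no statement on binding. The motifs were picked with the falling genes known.

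Among the genes that rose were 2 of the Cyp2c cluster. Cyp2c69, a cytochrome P450 of the Cyp2c cluster, had 0, 0.102 and 0.0602 CPM at week 10, or 5 counts over the 3 libraries, and 2.35, 2.14 and 2.26 CPM at week 12. It rose by 5.24 ± 0.86 (adjusted p = 0.0187), and week 6 lay at 3.67, 2.18 and 1.82 CPM. Its relative Cyp2c68 measured 6, 18.4 and 7.89 CPM at week 10, 47, 35.2 and 49.5 CPM at week 12 and 53.7, 50.2 and 50 CPM at week 6 (week 12 against week 10: 2.03 ± 0.38, adjusted p = 0.0371). These genes are near-identical copies in part, and how the estimated counts split between them is uncertain. They were the calls among 30 measured genes of xenobiotic and steroid metabolism, whose median was 1.11; 28 of the 30 estimates were positive and 16 genes were higher in every week 12 library. Without the week 14 libraries 8 of the 30 rose, and without week 10 replicate 1 none did, at a median of 0.82. Hsd3b3, a steroid dehydrogenase, was 0.269, 1.43 and 0.662 CPM and then 9.68, 17.2 and 28.2 CPM, just short of the threshold (4.53 ± 1.01, adjusted p = 0.0589). Cyp2c55, at 318, 182 and 235 CPM at week 6, had 0.115, 1.02 and 0.12 CPM at week 10 and 1.6, 13.3 and 15.8 CPM at week 12. Its groups did not overlap, but neither the difference from week 10 (4.59 ± 1.78, adjusted p = 0.243) nor that from week 6 (-4.58 ± 1.67, adjusted p = 0.106) passed.

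The endothelins, peptides that constrict vessels and are also made by epithelium, were represented by Edn1 and Edn2 among the rises, while Edn3 did not pass (0.29 ± 0.43, adjusted p = 0.840). Edn2 measured 0.307, 1.19 and 0.482 CPM at week 10, 5.76, 5.96 and 6.66 CPM at week 12 and 6.06, 3.51 and 3.1 CPM at week 6. It rose by 3.20 ± 0.46 (adjusted p = 0.0110). Edn1 was 2.77, 6.55 and 6.05 CPM at week 10, 25.6, 60.7 and 22.5 CPM at week 12 and 30.8, 60 and 30.3 CPM at week 6 (week 12 against week 10: 2.82 ± 0.57, adjusted p = 0.0444). Ppfia3, a liprin of cell junctions and synapses, was even within each age, with 2.73, 2.36 and 2.41 CPM at week 10 and 17.7, 19 and 17.3 CPM at week 12 (2.85 ± 0.41, adjusted p = 0.0110). Acer1, an alkaline ceramidase, rose from 4.65, 7.95 and 4.31 CPM to 23.9, 24.2 and 23 CPM (2.07 ± 0.37, adjusted p = 0.0307), about midway to its week 6 values of 48.3, 43.5 and 40.1 CPM. Without week 10 replicate 1 Edn1 (adjusted p = 0.130) and Acer1 (adjusted p = 0.0970) did not pass.

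Transporters and lipid enzymes were among the other rises. Slc16a9, of the monocarboxylate transporter family, measured 1.04, 1.81 and 1.23 CPM and then 5.59, 5.31 and 7.14 CPM (2.14 ± 0.45, adjusted p = 0.0489). Chp2, a partner of sodium-proton exchangers, was 8.3, 11.4 and 11.9 CPM and then 51.4, 59.1 and 26.3 CPM (2.11 ± 0.41, adjusted p = 0.0395). The water channel Aqp11 (1.47 ± 0.23), the aldo-keto reductase Akr1c19 (1.88 ± 0.33), the glutathione transferase Gstm3 (1.74 ± 0.35), the medium-chain acyl-CoA synthetase Acsm3 (1.22 ± 0.24) and the fatty acid hydroxylase Fa2h (1.33 ± 0.25) rose as well, with adjusted p from 0.0170 to 0.0435. Nt5e, the surface enzyme CD73 that makes adenosine, went from 64.8, 68.3 and 48.7 CPM to 132, 153 and 148 CPM (1.25 ± 0.25, adjusted p = 0.0401). Tsc22d3, a glucocorticoid-induced regulator, rose by 1.06 ± 0.21 (adjusted p = 0.0401), and Cdkn2b, an inhibitor of the G1 kinases, by 1.21 ± 0.20 (adjusted p = 0.0222). Per3, a circadian clock gene, measured 1.15, 1.84 and 1.87 CPM and then 5.84, 8.29 and 7.84 CPM (2.17 ± 0.45, adjusted p = 0.0475), against 7.33 to 7.77 CPM at week 6. The time of day of sampling is not given in the labels. Kazald1 (2.64 ± 0.39), Ly6g6d (2.57 ± 0.46), Rnf32 (2.13 ± 0.43) and A4gnt (1.69 ± 0.32) completed the named rises, with adjusted p from 0.0110 to 0.0426. Of the rises from Slc16a9 to A4gnt, only Aqp11 and Kazald1 passed without week 10 replicate 1. The others then had adjusted p from 0.0629 to 0.13.

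**Figure D3:**
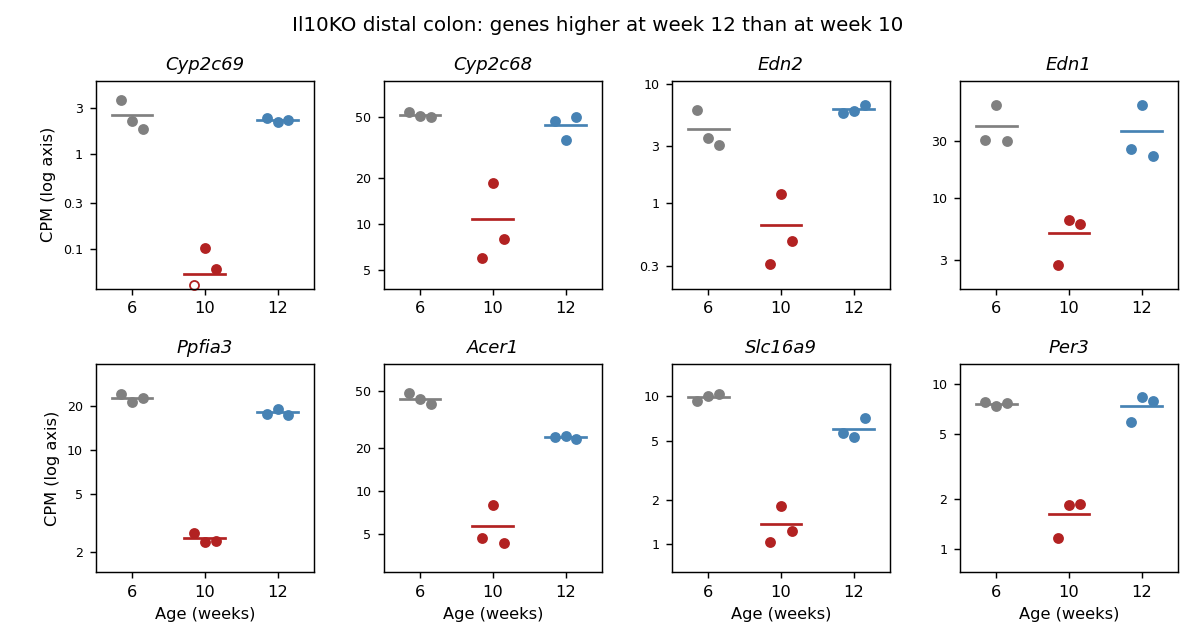
CPM on a log axis (y) of 8 genes that rose between week 10 and week 12, by age in weeks (x), with 1 point per library and a bar at the group mean; the open point is a library with 0 counts, drawn at the lower edge. Every week 12 point lies above every week 10 point, and for Cyp2c68, Edn1 and Per3 the week 12 values overlap or adjoin those of week 6.

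Neutrophil genes and the chemokines that recruit neutrophils had the lowest medians of the lists described, without a call. S100a8 measured 2983, 80.4 and 10.8 CPM at week 10 and 14.3, 7.49 and 3.63 CPM at week 12. The ranges overlapped, since week 10 replicate 3 lay under week 12 replicate 1, and the difference of -6.91 ± 2.23 did not pass (adjusted p = 0.164). Lrg1, a neutrophil granule and acute phase gene that epithelium also makes, was 2261, 297 and 609 CPM and then 47.8, 19.2 and 18.7 CPM (-5.21 ± 1.33, adjusted p = 0.0900). Cxcr2, the receptor that brings neutrophils into tissue, was 42.5, 5.87 and 2.32 CPM and then 1.46, 0.691 and 0.637 CPM (-4.17 ± 1.24, adjusted p = 0.136). Of the 21 measured neutrophil genes 19 had a negative estimate and 9 were lower in every week 12 library; their median was -3.07, and -1.03 without week 10 replicate 1. Their summed CPM was 8797, 1890 and 2006 in the week 10 libraries and 953.6, 867.5 and 965.8 in those of week 12, against 312.2 to 347.7 at week 6. S100a8 and S100a9 took at most 6.77e-05% of the counts at week 6 and 0.00336% at week 12. At these ages the sums came mostly from other members of the list and are not a measure of neutrophil content. Without the week 14 libraries 10 of the 21 fell, S100a8 among them (adjusted p = 0.0182).

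The chemokines that recruit neutrophils showed the same spread between libraries. Cxcl5 was 1750, 49.2 and 12.6 CPM at week 10 and 7.91, 5.74 and 4.21 CPM at week 12 (-6.66 ± 1.93, adjusted p = 0.128). Cxcl1 was 68.8, 14.9 and 7.38 CPM and then 3.75, 3.02 and 2.26 CPM (-3.33 ± 1.19, adjusted p = 0.207). None of the 5 measured members passed, 4 fell without the week 14 libraries, and the median of -4.59 was -2.25 without week 10 replicate 1. Among 20 inflammatory cytokines none passed, and the median was -1.55, with -0.75 without that library. Il1b measured 369, 47.1 and 16 CPM at week 10 and was even at week 12, with 13.5, 13.9 and 14.7 CPM (-3.36 ± 1.25, adjusted p = 0.226). Ifng, the Th1 cytokine, was 6.15, 15.2 and 5.06 CPM and then 0.859, 1.71 and 0.35 CPM (-3.18 ± 1.10, adjusted p = 0.188), with no overlap of the groups. Without the week 14 libraries both passed, with adjusted p of 0.0423 for Il1b and 0.0201 for Ifng.

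Epithelial defence genes were mixed. Nos2, inducible nitric oxide synthase, measured 373, 554 and 659 CPM at week 10, 82.4, 65.9 and 112 CPM at week 12 and 0.581, 1.2 and 1.32 CPM at week 6. The groups were well apart, yet -2.61 ± 0.72 did not pass (adjusted p = 0.111), and week 12 was still higher than week 6 by 6.39 ± 0.87 (adjusted p = 0.0110). Ltf, lactoferrin, was 123, 243 and 206 CPM and then 36.2, 16.9 and 11.8 CPM (-3.14 ± 1.05, adjusted p = 0.176), and likewise remained above week 6 (5.59 ± 1.24, adjusted p = 0.0402). Clca4b, an epithelial gene of the chloride channel regulator family, was 944, 692 and 782 CPM at week 12 after 4490, 1799 and 2862 CPM at week 10 and 3.89 to 9.55 CPM at week 6 (week 12 against week 6: 7.05 ± 1.09, adjusted p = 0.0124). Reg3b, a secreted lectin, had 0 counts in each week 6 library and was 110, 6.55 and 1.87 CPM at week 10 and 1.29, 0.4 and 0.0637 CPM at week 12. None of the 24 measured genes on this list passed between weeks 12 and 10, with a median of -0.71; 5 fell without the week 14 libraries, Nos2 and Lcn2 among them with adjusted p of 0.0137 and 0.00500. Of regenerative and squamous-type genes, Sprr1a was 252, 166 and 47.5 CPM and then 52, 24.6 and 11 CPM, with overlap (-2.41 ± 1.05, adjusted p = 0.306), and none of 20 passed. Ly6a, a marker of repairing epithelium and of T cells, was 1930, 1865 and 1187 CPM at week 12 and 67.8 to 90.2 CPM at week 6 (4.38 ± 0.90, adjusted p = 0.0359).

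MHC class II genes, which present antigen to helper T cells, were not separated between weeks 10 and 12 and were above week 6 at both. Cd74, the class II invariant chain, was 2504, 5629 and 3930 CPM at week 10 and 3430, 3950 and 3980 CPM at week 12, against 854, 598 and 911 CPM at week 6. The week 12 values lay inside the week 10 range, with a difference of -0.09 ± 0.46 (adjusted p = 0.967), which leaves changes of either sign within its error. H2-Ab1, a class II beta chain, was 444, 1146 and 795 CPM and then 938, 1094 and 864 CPM (0.28 ± 0.53, adjusted p = 0.878), and 2.85 ± 0.57 above week 6 (adjusted p = 0.0315). Ciita, the master regulator of class II genes, was 34.1, 105 and 101 CPM and then 52.5, 96.8 and 63.8 CPM (-0.17 ± 0.49, adjusted p = 0.928), and 2.40 ± 0.52 above week 6 (adjusted p = 0.0383). H2-DMb1, which helps load peptide, was 24.6, 61.7 and 46.4 CPM and then 29.2, 42.2 and 32.9 CPM, and 3.13 ± 0.68 above week 6 (adjusted p = 0.0385). None of 12 measured class II genes passed or separated between weeks 12 and 10, and their median was 0.08. Against week 6, 9 of the 12 were higher at week 10 (median 2.40) and 9 of the 12 at week 12 (median 2.38). H2 genes are polymorphic and similar to each other, so that estimates for single members are uncertain.

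Interferon-gamma-inducible genes were intermediate. All 26 measured members had a negative estimate between weeks 12 and 10, at a median of -1.45, and 9 were lower in every week 12 library, but none passed. Week 10 replicate 1 had the lowest week 10 sum (4156 CPM, against 12210 and 10080), and without it the median was -1.69. Against week 6, 26 of 26 were higher at week 10 (median 4.09) and 13 of 26 at week 12 (median 3.38). Gbp5, a guanylate-binding protein of the inflammasome response, was 66.7, 149 and 147 CPM at week 10 and 25.7, 37 and 14.6 CPM at week 12 (-2.23 ± 0.61, adjusted p = 0.110). Gbp9 was 40.5, 65.7 and 72.1 CPM and then 16.1, 31.3 and 17.2 CPM (-1.47 ± 0.33, adjusted p = 0.0614). Without the week 14 libraries 3 members fell, Gbp5 (adjusted p = 0.0268) and Gbp9 (adjusted p = 0.0168) among them. Ido1, the tryptophan-degrading enzyme, was 372, 338 and 380 CPM at week 10, 150, 190 and 58.2 CPM at week 12 and 0.489, 0.632 and 0.908 CPM at week 6. Its week 12 values were all below week 10, a difference that did not pass (-1.45 ± 0.95, adjusted p = 0.532), and far above week 6 (7.61 ± 1.27, adjusted p = 0.0209). Iigp1, an immunity-related GTPase, was 5.46 ± 0.98 above week 6 at week 12 (adjusted p = 0.0263), and Nlrc5, the regulator of class I genes, 3.75 ± 0.59 (adjusted p = 0.0144). Cxcl9, the interferon-gamma-induced chemokine that draws T cells, was 59.2, 85.4 and 14 CPM at week 12 after 228, 460 and 189 CPM (-2.47 ± 1.00, adjusted p = 0.265). Guanylate-binding proteins and immunity-related GTPases have close paralogs, with the same uncertainty as above.

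T cell genes did not separate the ages. None of 20 T cell genes passed or lay on 1 side, their median was 0.28, and their summed CPM was 172.8, 187.2 and 71.65 in the week 10 libraries and 141.7, 196 and 174.2 in those of week 12, against 42.93 to 72.8 at week 6. Of 20 Th1 and cytotoxic genes none passed between weeks 12 and 10, but 18 estimates were negative and the median was -0.57; 13 were higher than at week 6 at week 10 and 4 at week 12, among them Gzma, Gzmb and Prf1. Gzma, a granule protease of cytotoxic cells, was 55.5, 86.5 and 16.8 CPM and then 40.5, 31.8 and 24.5 CPM (-0.71 ± 0.99, adjusted p = 0.821), and 7.12 ± 1.38 above week 6 at week 12 (adjusted p = 0.0309). Prf1, perforin, was 2.65, 3.21 and 1.57 CPM and then 1.49, 1.49 and 2.2 CPM, and 2.15 ± 0.46 above week 6 (adjusted p = 0.0376). Gzmb was likewise higher than at week 6, by 5.72 ± 1.32 (adjusted p = 0.0421). Of 17 B cell genes all had a positive estimate between weeks 12 and 10, but none passed or lay on 1 side (median 0.70). Their summed CPM overlapped, at 492.3, 607.7 and 82.88 at week 10 and 242.1, 683.9 and 857 at week 12. Ighg3, an IgG heavy chain, was 12, 21.8 and 2.41 CPM at week 10 and 8.45, 22.9 and 73.5 CPM at week 12; the ages overlapped, and week 12 was 4.19 ± 0.91 above week 6 (adjusted p = 0.0383). Other large differences of week 12 from week 6 were in Plet1, an epithelial repair gene (6.56 ± 1.40), the interferon-induced GTPase gene Tgtp1 (6.30 ± 1.22), Olfr56 (5.97 ± 1.20) and the monocyte chemokine Ccl8 (5.63 ± 1.19), with adjusted p from 0.0309 to 0.0376.

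**Figure D4:**
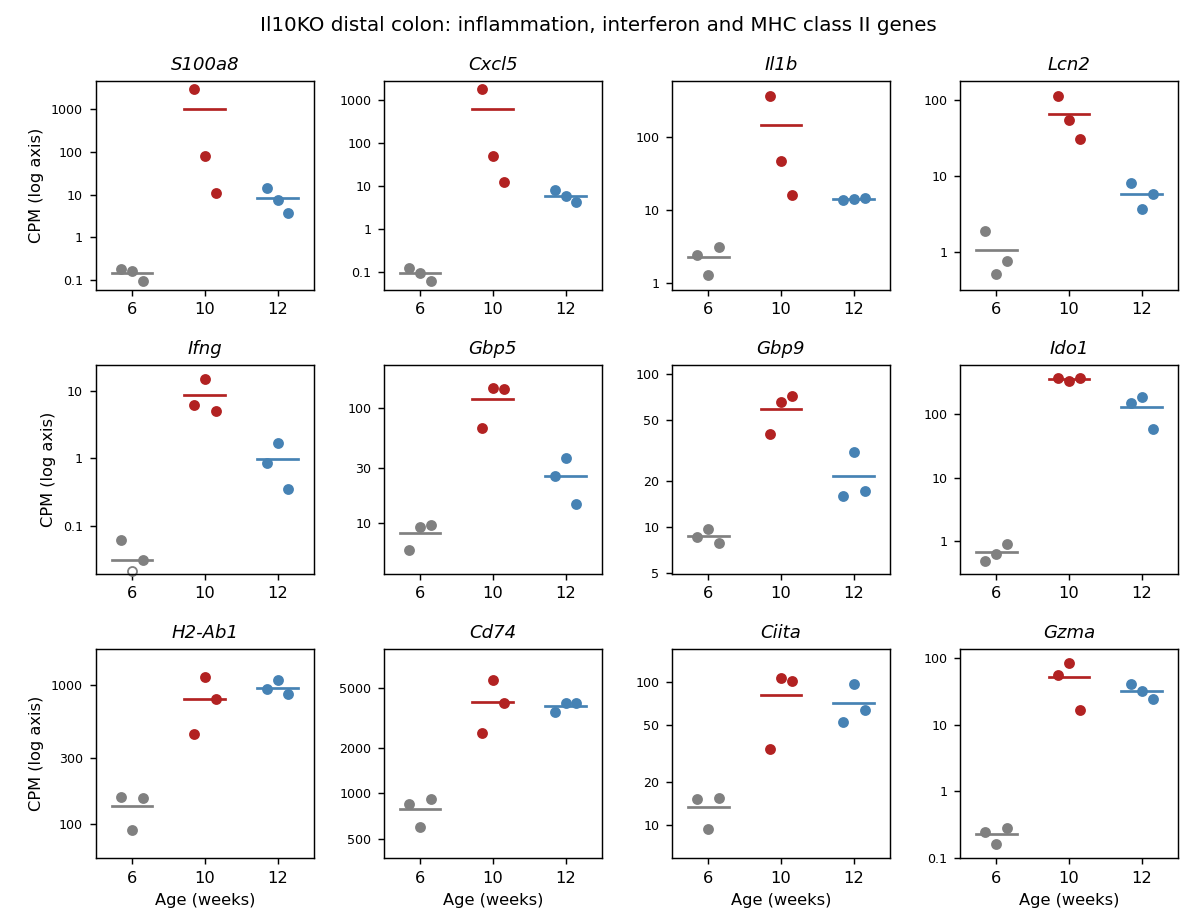
CPM on a log axis (y) of 12 inflammatory, interferon-related and antigen-presentation genes by age in weeks (x), with 1 point per library, a bar at the group mean and an open point for a library with 0 counts. S100a8, Cxcl5 and Il1b spread over more than 10-fold between the week 10 libraries, while the week 12 points of H2-Ab1, Cd74, Ciita and Gzma lie within the week 10 range and those of Ido1 between weeks 6 and 10.

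Genes lower than at week 6 were also still found at week 12. Col1a2, a collagen I chain, was 547, 359 and 474 CPM at week 6, 57.3, 90.2 and 224 CPM at week 10 and 87.5, 74.7 and 101 CPM at week 12. Weeks 10 and 12 overlapped (-0.50 ± 0.53, adjusted p = 0.746), and week 12 was 2.39 ± 0.56 below week 6 on the log2 scale (log2 fold change -2.39, adjusted p = 0.0442). Col4a1, of basement membrane collagen, went from 226, 154 and 186 CPM at week 6 to 40, 27.9 and 36.4 CPM at week 12 (-2.44 ± 0.59, adjusted p = 0.0477). The laminin Lamb1 (-2.41 ± 0.58) and the matrix protein Sparc (-1.62 ± 0.33) were lower as well, with adjusted p of 0.0471 and 0.0353. None of 22 matrix and fibroblast genes passed between weeks 12 and 10 (median -0.44), while 10 of 22 were lower at week 10 than at week 6 and 6 of 22 at week 12, with medians of -1.70 and -2.19. Car1, a colonocyte carbonic anhydrase, was 1192, 1123 and 907 CPM at week 6, 102, 92.1 and 69.7 CPM at week 10 and 62.8, 209 and 198 CPM at week 12 (week 12 against week 6: -2.78 ± 0.49, adjusted p = 0.0254). The enteric nerve and hormone cell gene Syt4 (-2.48 ± 0.43), Galnt17 (-4.21 ± 1.01), Ndnf (-2.86 ± 0.67), Peg10 (-2.73 ± 0.66) and Fndc5 (-2.45 ± 0.54) were lower than at week 6 too, with adjusted p from 0.0239 to 0.0471.

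Mature colonocyte genes had estimates of both signs, 18 positive and 10 negative. None of 28 passed between weeks 12 and 10. In every week 12 library 8 were higher and 4 lower, against 11.7% and 12% of all genes. The median of 0.73 was 0.28 without week 10 replicate 1. Guca2a, the peptide guanylin, was 36.5, 110 and 62.1 CPM at week 10 and 115, 229 and 213 CPM at week 12 (1.41 ± 0.43, adjusted p = 0.138). Trpm6, a magnesium channel, was 6.03, 19.8 and 18.4 CPM and then 53.5, 47 and 65.2 CPM (1.90 ± 0.72, adjusted p = 0.235). Aqp4, a basolateral water channel, lay the other way, at 918, 381 and 500 CPM and then 202, 195 and 318 CPM (-1.33 ± 0.31, adjusted p = 0.0650), and remained 1.45 ± 0.31 above week 6 (adjusted p = 0.0369). Without the week 14 libraries 4 of the 28 rose and 2 fell. Hoxb13, a distal colon patterning gene, was 202, 242 and 236 CPM and then 470, 353 and 322 CPM (0.75 ± 0.22, adjusted p = 0.130). Of 21 genes of butyrate and fatty acid oxidation none passed, and 7 were higher in every week 12 library. Acadm, a fatty acid dehydrogenase, was 59, 98.4 and 68 CPM and then 144, 117 and 124 CPM (0.77 ± 0.21, adjusted p = 0.107).

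Markers of tissue that a biopsy could include in varying amounts gave no call. The summed CPM of 8 adipose genes was 39.01, 26.01 and 27.01 in the week 10 libraries and 43, 45.41 and 27.62 in those of week 12 (median 1.48, with 5 of 8 higher in every week 12 library). That of 16 enteric neuron and glia genes was 546.4, 146.2 and 142.9 and then 96.97, 81.5 and 85.35. Their median log2 fold change was yet 0.13, with 9 positive and 7 negative estimates, and 1 gene was lower and 1 higher in every week 12 library. For 13 mitochondrially encoded genes the sum was 69360, 79710 and 50250 and then 69130, 76640 and 82480. Macrophage and monocyte genes summed to 3002, 2554 and 1222 CPM at week 10 and 1618, 2553 and 1705 CPM at week 12, with 0 of 25 called. Dendritic cell (0 of 13), mast cell (0 of 9), red blood cell (0 of 5), squamous skin (0 of 9) and smooth muscle (0 of 13) genes gave none either; all these summed levels were above 0, and their part in the differences above was not tested.

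**Figure D5:**
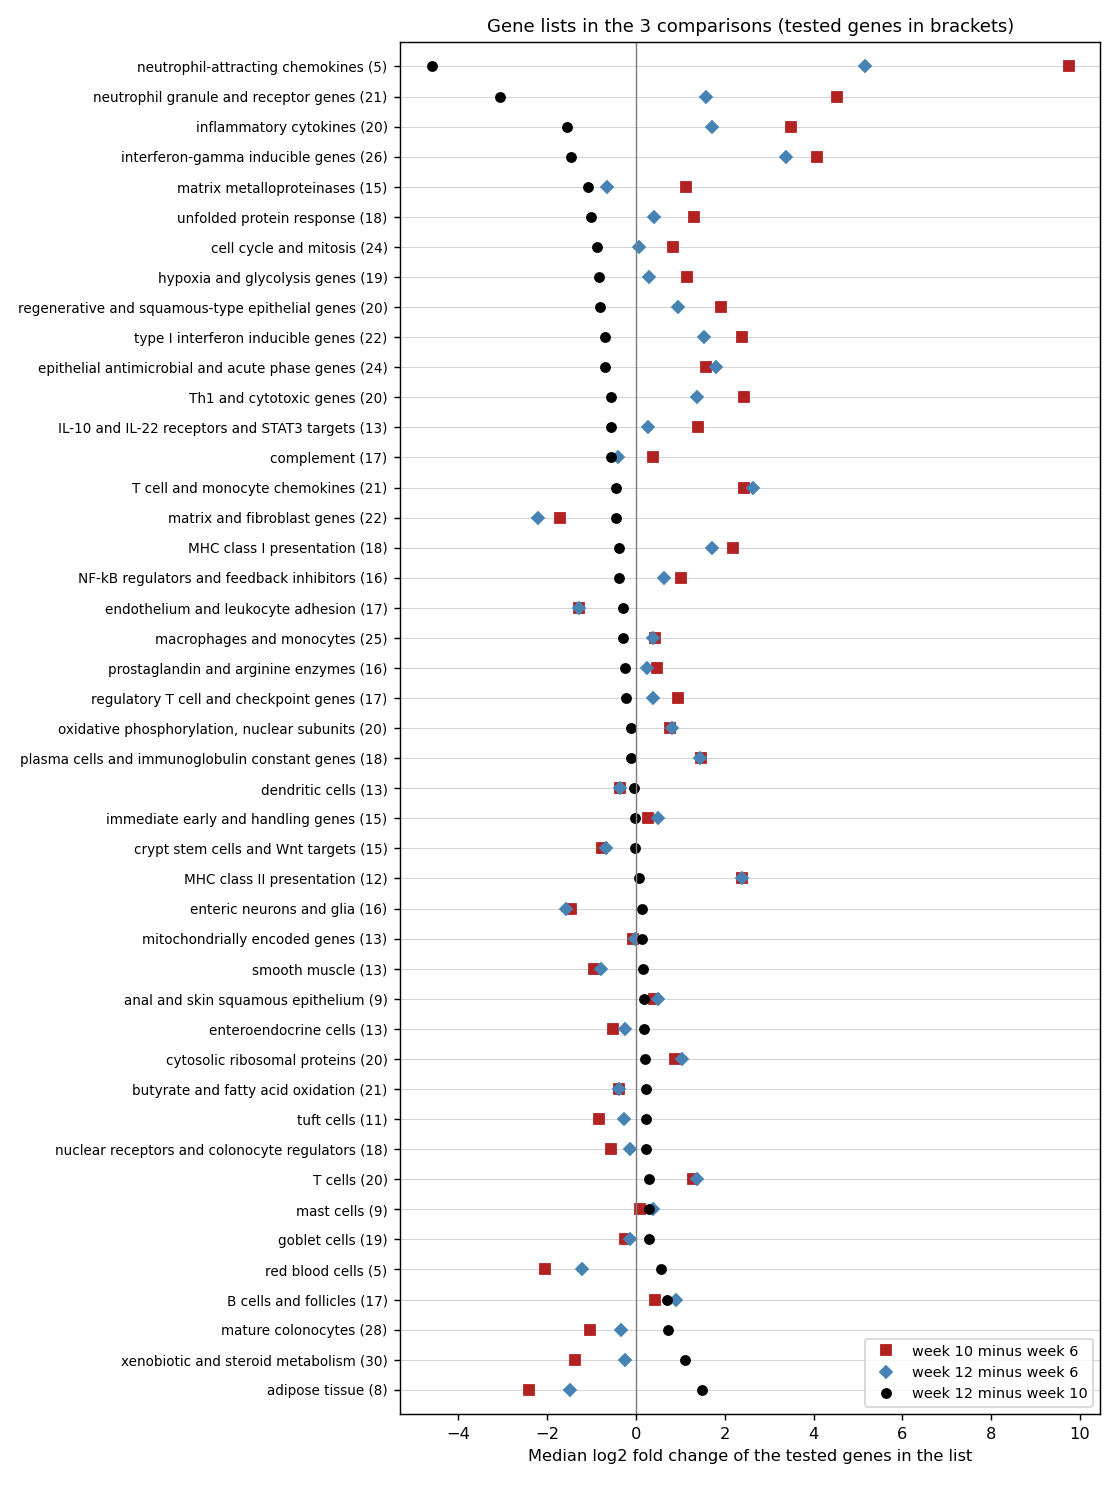
Median log2 fold change (x) of the tested genes of each gene list (y, number of genes in brackets, ordered by week 12 against week 10) in the 3 comparisons, which share libraries. MHC class II genes lie near 0 between weeks 12 and 10 and near 2.4 against week 6 at both ages, while xenobiotic and steroid metabolism genes lie at 1.11 between weeks 12 and 10.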

How the data were processed

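Polyadenylated RNA of distal colon from 18 mice was sequenced, 3 in each of 6 groups of genotype and age, as the labels give them. The authors quantified transcripts with kallisto on mm10 after FastQC, per the submitters' processing notes, with versions and annotation not given in the sources used here. Their deposited gene table holds estimated counts, rounded and summed per gene symbol (16321 genes, each with at least 50 counts in all); the authors' deposited TPM table covers the same genes and served for an alternative, and deposited transcript estimates served for Il10, which the gene table does not list. Estimated counts are split among similar transcripts, so that paralogs are uncertain, and the labels do not say whether strand was used.

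edgeR 4.0.16 (R 4.3.3) was run with TMM, filterByExpr (16300 genes), the quasi-likelihood F-test on all 18 libraries in 1 fit of 6 group means, two-sided, and Benjamini-Hochberg adjustment with a threshold of 0.05. The biological coefficient of variation was 0.394. CPM are TMM-scaled. The standard error was taken as the unshrunken log2 fold change over the root of its F statistic. The labels do not say more of how mice were assigned. The edgeR p-values rest on a spread between mice estimated from all 18 libraries, not from the 6 compared alone. A count of 0 allows up to 3 counts (0.0859 to 0.115 CPM in the 6 libraries), counting error only. Lipocalin was compared by an exact permutation test (SciPy 1.17.1). The 45 gene lists (783 genes, 755 tested) came from general knowledge; members, lists and motifs were chosen with earlier results of these data known. Genes named are, the 12 strongest rises and 12 strongest falls between weeks 12 and 10 that were called, showed no overlap of the 2 groups and reached a mean log2 CPM of 1, the 10 largest each way between weeks 12 and 6, and up to 4 members of each list with the smallest p; gene models were not named, not every gene covered is given, and further called genes, Tnf, persisting list members such as Cd74, Ciita and Gzma, and the colon markers were named after their values were seen. Alternatives were DESeq2 1.42.0, limma-trend 3.58.1 on log2 TPM with pseudocounts of 1 and 0.1, voom with group weights, normalisation by RLE or by library size alone, different filters, models with RIN, cage or the replicate number, and fits with fewer groups or with single libraries left out. On simulated data with 200 changed genes among 16139 the fit recovered 62% of genes changed 4-fold and 2% of those changed 2-fold, with 5.88% false calls. The simulated libraries of all 6 groups had the same trend of spread. In the real data the spread differed, with voom group weights from 0.177 at week 14 to 3 in Il10KO week 6. These simulated rates need not hold for the real libraries.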

Additional observations from a re-analysis of the deposited data

How the results depend on the processing

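All 73 genes called between weeks 12 and 10 kept their direction under every alternative run. Since the 2 groups did not overlap in any of the 73, leaving out a library could hardly change a sign. The number that passed differed between settings. In place of 34 higher and 39 lower (73), the counts were 342 and 479 (821) with DESeq2, 447 and 583 (1030) with RIN as a covariate, 457 and 639 (1096) without the week 14 libraries and 71 and 120 (191) with voom group weights. They were 17 and 23 (40) with the replicate block, 6 and 14 (20) with library size in place of TMM, 3 and 14 (17) with log2 TPM at a pseudocount of 0.1, 7 and 48 (55) with a pseudocount of 1, 1 and 2 (3) with only the 2 compared groups, and 0 and 0 with cage as a factor, where 1194 genes had an unadjusted p under 0.05. Leaving out single libraries gave 0 to 31 higher, 0 to 39 lower and 0 to 70 in all. Of the 73, the same genes were called again in the same direction in 73 cases with DESeq2, 62 with voom and 36 with the block. The number was 18 with library size, 8 and 10 with log2 TPM at 0.1 and 1, and 2 with only the 2 compared groups. It was 25 without week 10 replicate 1, 46 without week 10 replicate 2 and 8 without week 12 replicate 1. None was called again with cage, or without week 10 replicate 3, week 12 replicate 2 or week 12 replicate 3. Library size moved the median of all genes by over 0.1, from -0.0057 to 0.11.

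The 3917 genes between weeks 10 and 6 became 5943 with DESeq2, 7584 with RIN, 2 with cage, 2310 with library size, 2021 with log2 TPM at 0.1, 6177 in the 2 groups, 7023 with voom, 8354 without week 14 and 767 to 5242 with a library left out. The 301 between weeks 12 and 6 became 2507, 5751, 0, 199, 137 (664 at a pseudocount of 1), 9186, 10096, 6686 and 0 to 52 in the same order, the cage fit having 1762 genes at an unadjusted p under 0.05. Of list genes, 10 were called between weeks 12 and 10; the number was 65 with DESeq2, 96 with RIN, 0 with cage, 6 with library size, 2 and 6 with TPM at 0.1 and 1, 0 in the 2 groups, 20 with voom, 97 without week 14 and 0 to 11 with a library left out.

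Of 98 named genes, those that changed sign were class II genes near 0: with cage Ciita was 0.53, Cd74 0.33 and H2-DMb1 0.28, and with library size Cd74 was 0.024. With a library left out Ciita ran from -0.54 to 0.076, Cd74 from -0.34 to 0.24 and H2-Ab1 from -0.0079 to 0.64. The lipocalin difference ran from 686.4 to 1751 ng/g with exact p of 0.2 to 0.4. The replicate numbers were not treated as pairs in the main fit, since each mouse had a single age and same-numbered mice came from different cages. Same-numbered libraries of weeks 12 and 10 had correlations of deviations of -0.0512, 0.116 and 0.237. Those of the other pairs ran from -0.327 to 0.235, the latter between the mice of cage B. Such correlations cannot decide on pairing with 3 libraries a group. The cause of the differences between settings was not tested. In the simulated data, with 3 libraries a group and the same trend of spread in each, 2-fold changes were mostly below what the fit could call.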
